A study of Rattus norvegicus with 26 samples.

Results

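The BCL-2 family genes were examined in the dentate gyrus (DG) of male F344 rats about 6 months old. The set was drawn up by name as 10 genes: Bcl2, Bcl2l1 and Bcl2l2, which encode the direct protein targets of ABT-263, Mcl1, whose protein the drug spares, the pore formers Bax and Bak1, and the BH3-only genes Bcl2l11, Bbc3, Bid and Bad. Values were available for 8 of the 10, among 17910 genes in all, and Mcl1 and Bbc3 were not analysed here. RNA from 1 hemisphere of each of 26 rats gave 1 library per rat. The 10 Veh rats received the gavage vehicle and belonged to an ongoing study of senolytics in brain aging. The 8 Dox rats were injected with doxorubicin, an anthracycline used in chemotherapy, at 2 mg/kg in each of 4 weekly doses. The 8 Dox + ABT rats received the same injections and ABT-263, a senolytic, at 12 mg/kg by gavage for 5 days in every other week. All brains were taken after behavioral testing, and no rat here received ABT-263 without Dox.

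The BCL-2 family sets the threshold for the mitochondrial pathway of apoptosis. BCL-2, BCL-XL (encoded by Bcl2l1) and BCL-W (Bcl2l2) hold BAX and BAK in check. BH3-only proteins such as BIM (Bcl2l11), BID and BAD engage the guardians or the pore formers, and once BAX and BAK open the outer mitochondrial membrane, cytochrome c is released and caspases are activated. ABT-263 (navitoclax) mimics a BH3 domain and fills the groove of the guardians, which is why it can kill senescent cells that lean on them. Neurons and glia express members of the family throughout life, with BCL-XL a main guardian of mature neurons.

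Of the 8 genes, 1 changed at p under 0.01 in each comparison. Bcl2l11 was lower in Dox than in Veh, and Bcl2l1 was lower in Dox + ABT than in Veh and lower in Dox + ABT than in Dox. Across all 15595 genes tested with limma, 2.87% passed this threshold for Dox with Veh, 7.84% for Dox + ABT with Veh and 4.03% for Dox with Dox + ABT, beside 12.5% of the 8 genes, which is a single gene. With arrayWeights, an option of limma that gives deviating libraries less weight, 1, 4 and 2 of the 8 passed, beside 3150, 5297 and 1612 of all genes, and the 1 was Bak1 in place of Bcl2l11. At p under 0.05 there were 1, 2 and 2 of the 8 genes, beside 10.2%, 22.5% and 12.7% of all genes. In limma, 0 of the 8 reached an adjusted p under 0.05 (Benjamini-Hochberg over all genes tested), beside 0.0192% of all genes for Dox with Veh and 0% for the other comparisons, and the smallest adjusted p in the family was 0.307, 0.118 and 0.181 in the same order. The median log2 fold change of the 8 genes was 0.03 for Dox with Veh, -0.19 for Dox + ABT with Veh and 0.12 for Dox with Dox + ABT, and that of all genes was 0.00 for each. Any 2 of the comparisons share a group of rats, so the 3 are not independent of each other.

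**Figure D1:**
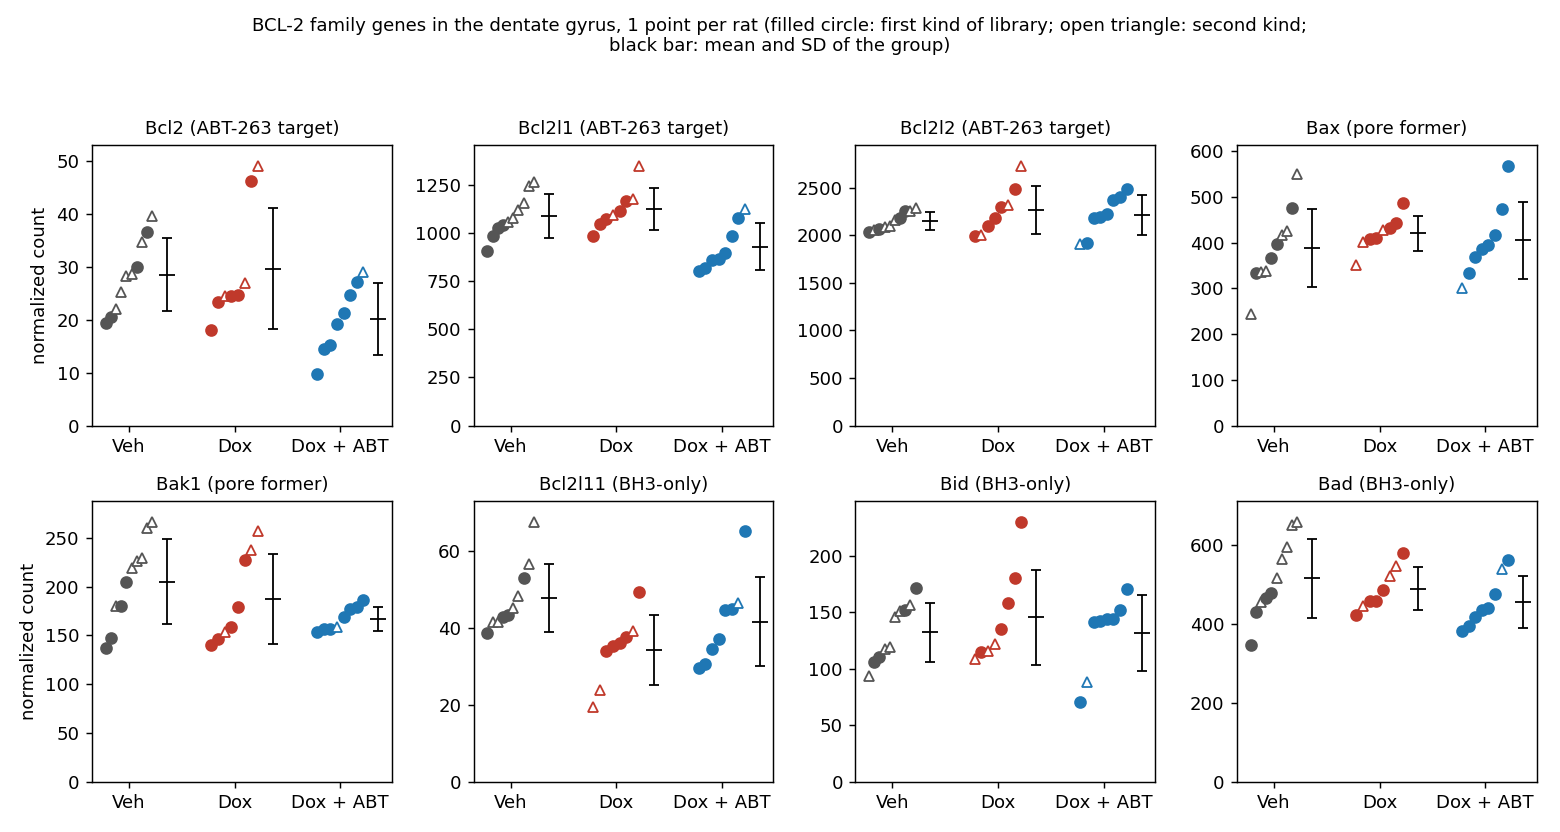
Normalized counts (linear axes from 0) of the 8 BCL-2 family genes with values in each rat of the Veh, Dox and Dox + ABT groups, 1 point per rat, filled circles for the first kind of library and open triangles for the second, with the mean and SD beside each group. Bcl2l1 lay between 800.5 and 1127 in Dox + ABT rats and between 985 and 1348 in Dox rats, and 6 of the 8 Dox rats lay below every Veh rat for Bcl2l11.

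The libraries held an estimated 1.02e+07 to 2.43e+07 reads, and the values are normalized counts, in which each library was divided by its own factor so that libraries can be compared. The libraries were cut into 2 kinds along the first principal component, where the spread within the 2 parts was least. With group means removed, this component held 28.4% of the variance within groups. For the final cut, the component was computed again with group means re-estimated beside the kind. Transcripts of ribosomal proteins made up 0.570% to 1.09% of the first kind and 1.15% to 1.89% of the second. Of the first kind were 4 Veh, 5 Dox and 7 Dox + ABT rats, and of the second 6 Veh, 3 Dox and 1 Dox + ABT, so the kind of library and the comparison of Dox + ABT with Veh can be told apart only in part. The kinds were cut from these same values, so small p values between them are built in and only describe the split. Between the kinds, 35.1% of all genes differed at limma p under 0.01, and so did 3 of the 8 family genes. Bcl2l1 was higher in the second kind by 0.22 on the log2 scale, Bak1 by 0.32 and Bad by 0.27 (limma adjusted p = 0.00420, 0.0177 and 0.0137). Values within the first kind are therefore given beside each of the changes. Of the granule cell markers Prox1, C1ql2, Dsp, Tdo2, Calb1 and Lct, which mark the labelled region, 5 of the 6 had values, and their summed normalized counts ran from 8183 to 13397 over the rats. Markers of the neighbouring CA fields were present as well and varied more between rats, with sums from 2921 to 18715. Levels of the 2 lists are not compared, since counts were not divided by transcript length. The share of CA tissue in each library was not tested. No marker with a value averaged under 1.

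The 250 bases before the annotated start of the 3 genes with the smallest p values in the family are shown, as the stretch next to the start where general and signal-dependent factors often bind. They come from RefSeq on GRCr8, which is another build than that of the deposited values. All 8 genes except Bax had a window in that source. Capitals mark the FOXO motif GTAAACA in Bcl2l11 and the TATA box TATAAA in Bcl2, and the Bcl2l1 window holds neither.
Bcl2l1 (chr3:161764776-161765025, minus strand): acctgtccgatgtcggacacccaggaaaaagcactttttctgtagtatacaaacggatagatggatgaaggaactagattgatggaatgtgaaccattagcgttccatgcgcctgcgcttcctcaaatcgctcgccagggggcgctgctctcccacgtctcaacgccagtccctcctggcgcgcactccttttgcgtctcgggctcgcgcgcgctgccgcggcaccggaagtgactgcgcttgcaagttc
Bcl2l11 (chr3:135819792-135820041, plus strand): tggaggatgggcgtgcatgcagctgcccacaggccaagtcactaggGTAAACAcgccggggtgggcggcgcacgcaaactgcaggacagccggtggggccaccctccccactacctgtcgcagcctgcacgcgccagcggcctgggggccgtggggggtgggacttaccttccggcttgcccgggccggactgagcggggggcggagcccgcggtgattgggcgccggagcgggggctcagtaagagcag
Bcl2 (chr13:23366901-23367150, minus strand): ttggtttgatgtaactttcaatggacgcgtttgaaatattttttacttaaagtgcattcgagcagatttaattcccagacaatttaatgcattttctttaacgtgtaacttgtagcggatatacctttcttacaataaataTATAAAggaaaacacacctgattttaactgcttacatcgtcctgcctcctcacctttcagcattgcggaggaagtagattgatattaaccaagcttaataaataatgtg
Positions are counted back from the start. On both strands, 7 motifs were searched: FOXO, the GC box GGGCGG, the TATA box, the CCAAT box, the CRE core TGACG, AP-1 (TGANTCA) and the E-box CACGTG. The FOXO motif of Bcl2l11 starts at -204, and of 33469 promoter windows of the same length 3.21% hold it. The same window holds a GC box at -188 and at -51 and a CCAAT box at -34, and no motifs overlap. Bad holds the same motif at -118. The TATA box of Bcl2 starts at -109 and 12.9% of windows hold one. The other motifs are in 30.5% (GC box), 34.0% (CCAAT box), 18.2% (CRE core), 6.34% (AP-1) and 5.59% (E-box) of windows. The Bcl2 window has a GC content of 33.6%, lower than all but 4.19% of windows, and the Bcl2l11 window one of 72.0%, above that of 94.0% of windows. Bcl2l1 has 4 annotated starts, and the window shown, before the start that lies farthest upstream, has a GC content of 57.6% and none of the 7 motifs. A match is a stretch of letters and not a shown binding site.

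Bcl2l1 (ENSRNOG00000007946), the gene of BCL-XL, passed the threshold in 2 comparisons, whereas Bcl2 and Bcl2l2 passed in none in the same unweighted limma fit. In Veh rats its normalized counts ran from 904 to 1267 with a median of 1068. In Dox rats they ran from 985 to 1348 with a median of 1102. In Dox + ABT rats they ran from 800.5 to 1127 with a median of 881. The Dox + ABT rats sat low: 5 of the 8 lay below every Dox rat and also below every Veh rat, while the others overlapped with both groups. Every Dox rat lay above the median of the Dox + ABT rats, and 3 of the 8 lay above every Dox + ABT rat. Bcl2l1 was higher in Dox than in Dox + ABT by 0.28 on the log2 scale (SE 0.083, 95% interval 0.11 to 0.45, limma p = 0.00220, adjusted p = 0.181), which is 21.5%. The exact permutation test of the same difference gave p = 0.00528 (two-sided). By p, Bcl2l1 ranked 187 among the 15595 genes of that comparison. The difference was 0.26 with the first kind of library alone (limma p = 0.00394, adjusted p = 0.0840). There the mean was 1076 ± 67.6 (SD, n = 5) in Dox and 900.4 ± 99.4 (n = 7) in Dox + ABT. The difference stayed past the threshold whichever rat was left out, with values from 0.24 to 0.32, and of the other alternatives only the replicate block lost the call (0.25, limma p = 0.0430, adjusted p = 0.542).

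Against Veh, Bcl2l1 fell by 14.8% in Dox + ABT rats (log2 fold change -0.23, SE 0.079, 95% interval -0.39 to -0.07, limma p = 0.00684, adjusted p = 0.118). Of the 10 Veh rats, all lay above the median of the Dox + ABT rats. This difference was smaller once the kind was a covariate, at -0.13 (limma p = 0.0782, adjusted p = 0.694), and with the first kind alone, at -0.14 (limma p = 0.121, adjusted p = 0.893), where the mean of the 4 Veh rats was 988 ± 61.2. The exact permutation test gave p = 0.0113. The call was lost with quantile scaling (-0.19), under the replicate block (-0.23) and with the 2 groups alone (-0.23) as well. It also lost its call when any 1 of 9 rats was left out, with values from -0.23 to -0.20 and p from 0.0107 to 0.0196: Veh replicates 1, 3, 9 and 12 and Dox + ABT replicates 1, 3, 5, 6 and 11. Between Dox and Veh the difference in Bcl2l1 was 0.05 (95% interval -0.11 to 0.21, adjusted p = 0.835), with 6 of the 8 Dox rats above the Veh median. The gene has 2 rows of transcripts in the deposited values. The larger one, which gave a median of 92.3% to 93.3% of the gene's counts by group, was higher in Dox than in Dox + ABT by 0.27, and the smaller one by 0.45 (limma adjusted p over all rows = 0.236 and 0.439).

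In bulk tissue, a lower level can mean fewer cells that express a gene or less RNA in each, and the 2 cannot be told apart. Beside the Bcl2l1 difference between Dox and Dox + ABT, markers of other cells moved as follows. Of the markers tested, 1 of 6 for oligodendrocytes, 1 of 5 for astrocytes and 1 of 4 for meninges were lower in Dox at p under 0.01, with median log2 fold changes of -0.25, -0.22 and -0.43 over the lists. For endothelium 1 of 3 was lower while the median was 0.46, and for neurons 1 of 3 was higher while the median was -0.06, so that in both lists the median had the opposite sign to the marker that passed. The medians farthest from 0 were those of red cells (1.43, summed medians of 19891 in Dox and 5879 in Dox + ABT) and choroid plexus (-1.35, 43.0 and 131), where 0 of 4 and 0 of 2 markers passed in limma. Summed oligodendrocyte markers ran from 46145 to 70854 normalized counts in Dox and from 49380 to 104825 in Dox + ABT, and summed astrocyte markers from 29841 to 37275 and from 34806 to 50607. Beside the difference from Veh, 1 of 4 granule cell markers, 1 of 5 astrocyte markers and 1 of 5 microglial markers were lower in Dox + ABT, with medians of -0.10, 0.02 and -0.31 over the lists, that of astrocytes opposite in sign to the marker that passed. The medians of choroid plexus and red cells were 0.81 and -0.47 there. Those of CA fields, neurons and mossy cells were -0.28, 0.20 and -0.19, and 0 markers of these 5 lists passed in limma. Summed CA field markers had medians of 7674 in Veh and 4864 in Dox + ABT. The part of these shifts in the Bcl2l1 difference was not tested.

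Bcl2 (ENSRNOG00000002791), the founding guardian of the family, rested on few reads: a median of 25 per library and 11 at the lowest, which gives a counting error of 20% in a typical library. Its normalized counts ran from 19.4 to 39.7 with a median of 28.5 in Veh, from 18 to 49.1 with a median of 24.6 in Dox and from 9.69 to 29.1 with a median of 20.3 in Dox + ABT. The Dox + ABT rats again sat low, with 4 of 8 below every Veh rat and 3 of 8 below every Dox rat, but 2 Dox rats with the highest counts widened the Dox group. The difference between Dox + ABT and Veh was -0.52 (SE 0.215, 95% interval -0.96 to -0.08, limma p = 0.0223, adjusted p = 0.162) and Dox exceeded Dox + ABT by 0.53 (95% interval 0.07 to 0.996, limma p = 0.0260, adjusted p = 0.323). Neither passed the threshold of 0.01. With arrayWeights both passed, at -0.68 and 0.70 (limma p = 0.00238 and 0.00350, adjusted p = 0.00978 and 0.0616), where 5297 and 1612 of all genes passed. In the first kind of library alone the values were -0.50 and 0.51 (adjusted p = 0.891 and 0.313). Between Dox and Veh the difference was 0.01, with an interval of -0.43 to 0.45.

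Bcl2l2 (ENSRNOG00000015732), the gene of BCL-W, passed the threshold in no comparison. Its normalized counts ran from 2032 to 2288 with a median of 2131 in Veh, from 1991 to 2729.8 with a median of 2242 in Dox and from 1912 to 2485 with a median of 2205 in Dox + ABT. The Veh rats were the closest together (SD 92.1, against 252 in Dox and 212 in Dox + ABT), inside the ranges of both other groups. Of the 8 Dox rats, 4 lay above and 2 below every Veh rat, and of the 8 Dox + ABT rats 3 lay above and 2 below. The log2 fold changes were 0.07 for Dox with Veh (95% interval -0.07 to 0.20), 0.04 for Dox + ABT with Veh (-0.10 to 0.17) and 0.03 for Dox with Dox + ABT (-0.11 to 0.18), with adjusted p of 0.723, 0.783 and 0.870. At 1390 to 3124 reads per library, counting error was small for this gene, at 2.08% in a typical library.

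**Figure D2:**
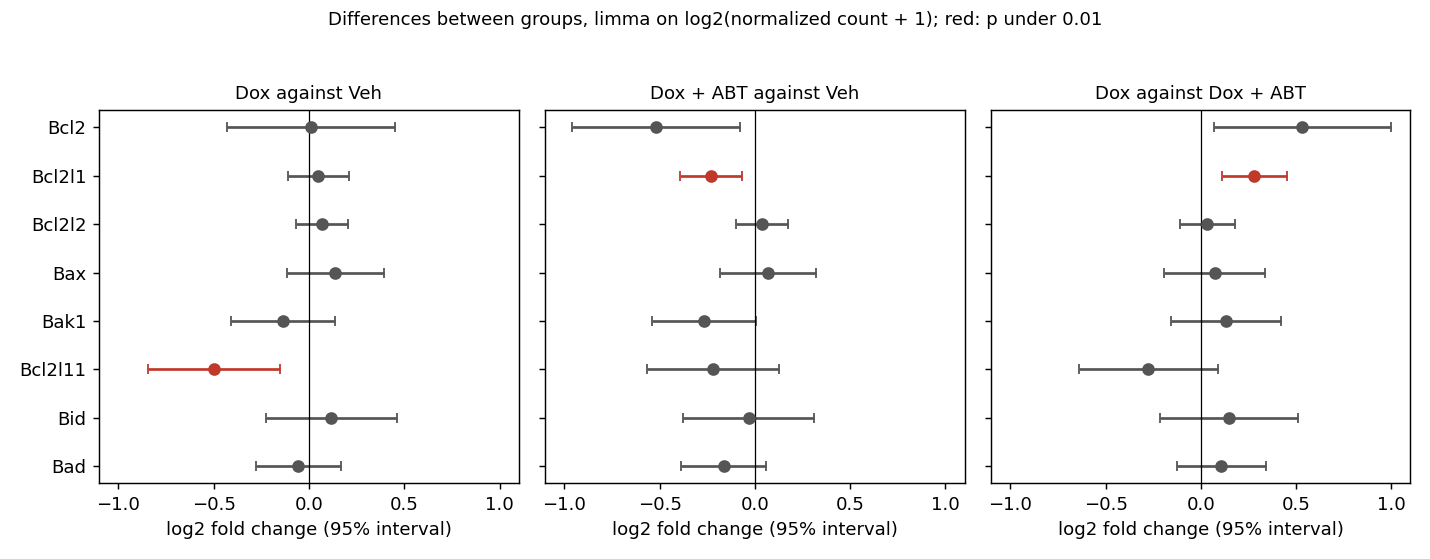
Log2 fold changes of the 8 BCL-2 family genes with 95% intervals from limma in the 3 comparisons (Dox with Veh, Dox + ABT with Veh, Dox with Dox + ABT), in red where p was under 0.01. Bcl2l11 is red in the first comparison and Bcl2l1 in the other 2, and the intervals of Bcl2l2 all cover 0.

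Bcl2l11 (ENSRNOG00000016551), which encodes the BH3-only protein BIM, was the gene that changed between Dox and Veh. Its normalized counts ran from 38.7 to 67.6 with a median of 44.3 in Veh, from 19.5 to 49.3 with a median of 35.6 in Dox and from 29.5 to 65.3 with a median of 40.8 in Dox + ABT. Of the 8 Dox rats, 6 lay below every Veh rat, and all 10 Veh rats lay above the Dox median. The Dox + ABT rats overlapped with both groups: 4 of the 8 lay below every Veh rat and 0 below every Dox rat. Of the 10 Veh rats, 9 lay above the Dox + ABT median. Bcl2l11 fell by 29.1% in Dox (log2 fold change -0.50, SE 0.169, 95% interval -0.84 to -0.15, limma p = 0.00654, adjusted p = 0.307), and the exact permutation test gave p = 0.00215. At a median of 42.0 reads per library, its counting error is 15.4%. The lowest 2 of the Dox rats carried libraries of the second kind. Within the first kind the difference was -0.21 (limma p = 0.358, adjusted p = 0.660), and within the second, which was examined after the data were seen, it was -0.88 (limma p = 0.00534, adjusted p = 0.260, 3 Dox and 6 Veh rats). With the kind as a covariate it was -0.51 (limma p = 0.00623, adjusted p = 0.315). The replicate block and arrayWeights also lost the call, at -0.30 and -0.38. Leaving out any 1 of 5 rats, namely Veh replicates 9, 11 and 12 and Dox replicates 5 and 7, lost the call, with values from -0.48 to -0.39 and p from 0.0111 to 0.0229.

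The Bcl2l11 difference of Dox + ABT rats from Veh did not pass the threshold (-0.22, 95% interval -0.57 to 0.13, limma adjusted p = 0.445). Nor did that between Dox and Dox + ABT (-0.28, interval -0.64 to 0.09, limma adjusted p = 0.528). The interval against Veh covers 0 and also the -0.50 of Dox with Veh, so likeness to either group is not shown. Beside the fall in Dox, 3 of 5 astrocyte markers and 3 of 5 microglial markers were lower in Dox than in Veh at p under 0.01, as were 2 of 6 oligodendrocyte markers and 1 of 4 markers of meninges. The median log2 fold changes of these lists were -0.43, -0.50, -0.24 and -0.42. Of the endothelial markers 1 of 3 was lower while the list's median was 0.21, and of the CA field markers 1 of 3 was higher while the median was -0.05, so that both medians had the opposite sign to the marker that passed. The medians of red cells and choroid plexus were 0.97 and -0.54. Summed microglial markers ran from 2321 to 4841 normalized counts in Veh and from 1953 to 3418 in Dox. Summed astrocyte markers ran from 36226 to 56558 and from 29841 to 37275. The part of these in the Bcl2l11 difference was not tested.

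Neither pore former passed the threshold in the unweighted fit of all rats. Bax, which moves to mitochondria when apoptosis begins, ran from 243 to 549 in Veh, from 352 to 487 in Dox and from 301 to 568.2 in Dox + ABT, with log2 fold changes of 0.14, 0.07 and 0.07 in the 3 comparisons (adjusted p = 0.695, 0.777 and 0.846). Its 2 rows had different values: the smaller, a median of 22.3% of the gene's counts in Veh rats, 26.6% in Dox rats and 30.7% in Dox + ABT rats, was higher by 0.55 in Dox and 0.62 in Dox + ABT than in Veh, but neither difference passed the threshold (limma adjusted p over all rows = 0.613 and 0.277). The larger row had differences of 0.04 and -0.07 (adjusted p = 0.952 and 0.815), so for Dox + ABT the rows had opposite signs. The difference between the rows was not tested. Bak1, which resides on mitochondria, ran from 137 to 267 in Veh, from 141 to 258 in Dox and from 154 to 186 in Dox + ABT. All 8 Dox + ABT rats lay below the Veh median of 212, and 6 of the 10 Veh rats lay above every Dox + ABT rat. The difference was -0.27 (95% interval -0.54 to 0.01, limma p = 0.0556, adjusted p = 0.233) and 0.02 within the first kind of library, where the 4 Veh rats averaged 168 ± 31.1 and the 7 Dox + ABT rats 169 ± 12.9. The 6 Veh rats of the second kind averaged 230 ± 31.2. With arrayWeights Bak1 passed the threshold against Veh in both other groups, beside 5297 of all genes for Dox + ABT and 3150 for Dox. It was -0.36 in Dox + ABT (limma p = 0.00178, adjusted p = 0.00782) and -0.33 in Dox (limma p = 0.00656, adjusted p = 0.0390), where the unweighted difference was -0.13. The Dox difference was 0.02 in the first kind of library alone (limma p = 0.893, adjusted p = 0.959) and -0.06 with the kind as a covariate.

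The other 2 BH3-only genes did not pass the threshold in that fit either. Bid, whose protein is cleaved by caspase-8 to link death receptors to mitochondria, ran from 93.4 to 171 in Veh, from 108 to 230 in Dox and from 70.9 to 171 in Dox + ABT, with log2 fold changes of 0.12, -0.03 and 0.15 (adjusted p = 0.818, 0.930 and 0.753). Bad, whose protein is kept inactive by phosphorylation when survival kinases are on, ran from 345 to 658 in Veh, from 421 to 580 in Dox and from 380 to 562 in Dox + ABT. Its log2 fold changes were -0.06, -0.16 and 0.11 (adjusted p = 0.872, 0.373 and 0.722), and its direction between Dox and Veh turned with the kind of library, to 0.17 in the first and -0.18 in the second. With arrayWeights Bad passed the threshold for Dox + ABT with Veh, at -0.34 (limma p = 0.000603, adjusted p = 0.00357), where 5297 of all genes passed. In the first kind of library alone that difference was 0.05, of the opposite sign.

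Ratios of pore former or BH3-only gene to guardian within each library were computed as a description, with no test, and compare rats only, since genes of different length are counted differently. Bax to Bcl2 had medians of 14.6 for Veh, 15.8 for Dox and 21.7 for Dox + ABT, and ranges of 6.13 to 20.5, 8.72 to 22.8 and 10.4 to 34.5. The other 2 ratios were chosen after the values were seen. Bax to Bcl2l1 had medians of 0.384, 0.381 and 0.441, and Bcl2l11 to Bcl2l1 medians of 0.0424, 0.0310 and 0.0422. The ranges of all 3 ratios overlapped between groups.

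**Figure D3:**
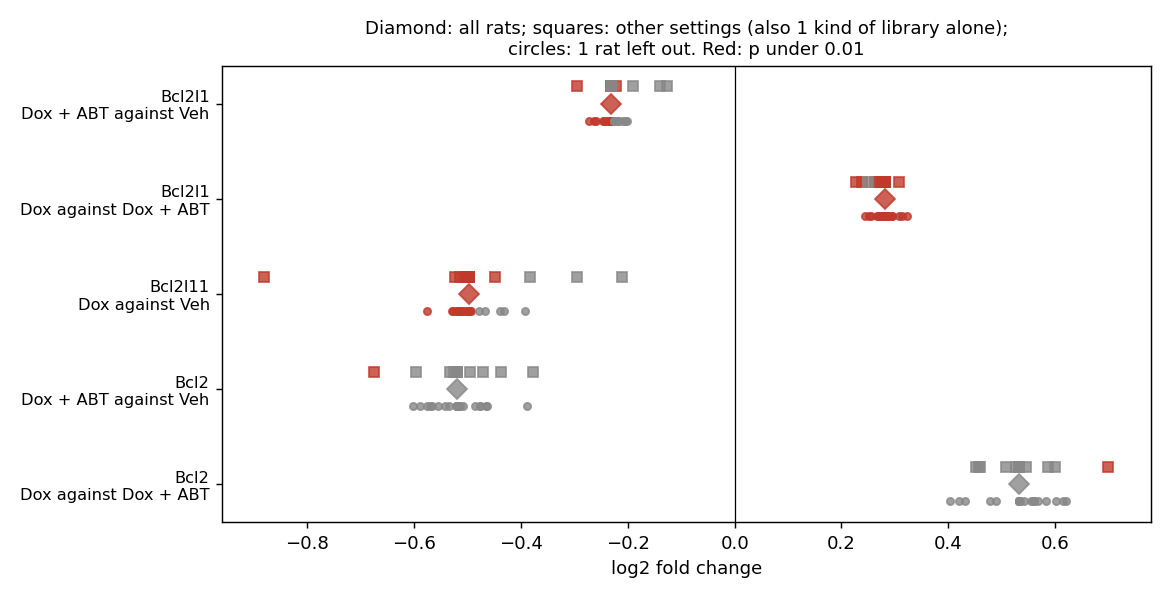
Log2 fold changes of Bcl2l1, Bcl2l11 and Bcl2 in the comparisons in which they moved most, for all rats (diamond), other settings including the kinds of library alone (squares) and each rat left out in turn (circles), in red where p was under 0.01. The Bcl2l1 difference between Dox and Dox + ABT stayed red in all circles, and the Bcl2l11 difference between Dox and Veh ranged most widely over the squares.

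Other members of the family and its BNIP relatives were taken from a list of 17 genes, of which 14 had values and 12 passed the filter. In this list 1 gene rose between Dox and Veh, 0 passed the threshold in limma between Dox + ABT and Veh (also 0 at p under 0.05) and 1 differed between Dox and Dox + ABT, beside backgrounds of 2.87%, 7.84% and 4.03% of all genes. The median log2 fold changes of the 12 genes were -0.00, 0.08 and -0.01. With arrayWeights, where 3150, 5297 and 1612 of all genes passed in the same order, the counts were 3, 2 and 1. For Dox with Veh the count was 2 without the variance trend (451 of all genes) and 0 with the kind as a covariate (421), the second kind alone (556) or the 2 groups alone (315). The gene was Pmaip1, which encodes the BH3-only protein NOXA, a partner of MCL-1, and is a target of p53. Its normalized counts ran from 15.1 to 56.9 with a median of 28.3 in Veh, from 29.1 to 122 with a median of 50.4 in Dox and from 18.3 to 39.8 with a median of 28.8 in Dox + ABT. Of the 8 Dox rats, 5 lay above every Dox + ABT rat and 3 above every Veh rat. Pmaip1 rose in Dox by 0.86 against Veh (SE 0.286, limma p = 0.00551, adjusted p = 0.29995) and was 0.96 higher in Dox than in Dox + ABT (SE 0.302, limma p = 0.00343, adjusted p = 0.187). Within the first kind of library these were 0.70 and 0.97 (adjusted p = 0.352 and 0.104), the first no longer past the threshold. The difference from Veh also lost its call with the second kind alone (0.88), with the kind as a covariate (0.77) and with the 2 groups alone (0.86), and the difference from Dox + ABT with arrayWeights (0.66). The call against Veh was lost without any 1 of 6 rats (Veh replicates 1, 2 and 4 and Dox replicates 1, 2 and 5), at 0.70 to 0.82, and the call against Dox + ABT without Dox replicate 1 or 2, at 0.80 and 0.82.

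Other named genes of that list did not pass the threshold. Bcl2l12 had means of 15.7 for Veh, 10.9 for Dox and 14.9 for Dox + ABT (Dox with Veh -0.55, adjusted p = 0.401). Bnip2 had means of 91.3, 83.0 and 103 (Dox with Dox + ABT -0.31, adjusted p = 0.304, and Dox + ABT with Veh 0.18, adjusted p = 0.384), and Bnip1 had means of 172, 192 and 189 (Dox + ABT with Veh 0.14, adjusted p = 0.378).

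Downstream of BAX and BAK, 21 of 22 genes of the list were tested. In limma, 0 passed the threshold between Dox and Veh (2 at p under 0.05), 2 did between Dox + ABT and Veh, 1 in each direction (6 at p under 0.05), and 0 did for Dox with Dox + ABT (1 at p under 0.05). These are 0%, 9.52% and 0% of the list, beside 2.87%, 7.84% and 4.03% of all genes, and at p under 0.05 the shares of all genes were 10.2%, 22.5% and 12.7%. The median log2 fold changes of the 21 genes were -0.02, -0.02 and 0.02. The counts were 7, 11 and 2 with arrayWeights, which raised the count over all genes as well. For Dox with Veh the count was 2 under the replicate block (765 of all genes) and 1 with the second kind of library alone (556). For Dox + ABT with Veh it was 1 with the covariate (214 of all genes) or the first kind alone (172), and for Dox with Dox + ABT it was 1 with the first kind alone (1281). Aifm1, the mitochondrial flavoprotein known as apoptosis-inducing factor, ran from 227 to 304 in Veh, from 246 to 371 in Dox and from 286 to 387 in Dox + ABT, and rose by 0.30 in Dox + ABT (SE 0.084, limma p = 0.00152, adjusted p = 0.109), with 6 of the 8 rats above every Veh rat. In the first kind of library it was 0.25 and no longer passed (limma p = 0.0122, adjusted p = 0.839). Diablo, whose protein SMAC relieves the block on caspases, averaged 471 ± 98.8 in Veh (SD, n = 10) and 352 ± 43.0 in Dox + ABT (n = 8). It fell by 0.40 on the log2 scale (limma p = 0.00703, adjusted p = 0.118). With the kind as a covariate its difference was -0.17 and in the first kind alone -0.06 (adjusted p = 0.711 and 0.984), and under the replicate block, at -0.38, the call was lost too (adjusted p = 0.154). Leaving out any 1 of 11 rats also lost that call (Veh replicates 1, 2, 3, 4, 9 and 12 and Dox + ABT replicates 3, 4, 5, 6 and 11), with values from -0.40 to -0.36.

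Among the genes of that list that were named for a small p without passing the threshold, Casp8, whose protease cleaves BID, had means of 8.88 for Veh, 5.70 for Dox and 8.75 for Dox + ABT, and Birc6, an inhibitor of apoptosis, had 816, 1029.6 and 1034. Their differences between Dox and Veh were -0.63 and 0.41 (adjusted p = 0.481 and 0.478). Dffa, the inhibitor of the caspase-activated DNase, had means of 293, 289 and 339, with a difference of -0.23 between Dox and Dox + ABT (adjusted p = 0.299).

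Of 32 regulators of the family, 30 had values and all were tested. Between Dox and Veh 1 rose and 1 fell, between Dox + ABT and Veh 2 fell, and between Dox and Dox + ABT 1 was higher in Dox. These are 6.67%, 6.67% and 3.33% of the list, beside 2.87%, 7.84% and 4.03% of all genes, so the last 2 shares lay below that of all genes. With arrayWeights the counts were 9, 11 and 4, where 3150, 5297 and 1612 of all genes passed. For Dox with Veh the count was 5 under the replicate block (765 of all genes) and 1 with the covariate (421), the first kind alone (742) or the 2 groups alone (315), and for Dox + ABT with Veh it was 1 with the first kind alone (172). For Dox with Dox + ABT it was 4 with the covariate (743 of all genes), 5 with the first kind alone (1281) and 2 with the 2 groups alone (704). The medians were 0.07, 0.00 and -0.01. Pim1, a survival kinase that phosphorylates BAD, rose most, by 1.17 (SE 0.303, limma p = 0.000589, adjusted p = 0.145): it ran from 15.0 to 36.2 in Veh, from 21.8 to 187 in Dox and from 20.8 to 56.6 in Dox + ABT, and 6 of the 8 Dox rats lay above every Veh rat. The Dox group was the most spread, and 3 of its rats lay above every Dox + ABT rat. Within the second kind of library the difference was 0.48 and the call was lost (limma p = 0.146, adjusted p = 0.498), while within the first it was 1.44 and passed (limma p = 0.000596, adjusted p = 0.178). Ddit3, the stress factor CHOP, which can induce Bcl2l11, averaged 571 ± 67.8 in Veh (n = 10) and 472 ± 78.0 in Dox (n = 8). It fell by 0.28 on the log2 scale in Dox (limma p = 0.00732, adjusted p = 0.312). The call was lost with the first kind of library alone (-0.36, limma p = 0.0135, adjusted p = 0.226) and the second alone (-0.15, p = 0.288), with the kind as a covariate (-0.27, p = 0.0107), under the replicate block (-0.35, p = 0.0219) and with the 2 groups alone (-0.28, p = 0.01001). Leaving out 1 of 9 rats, namely Veh replicates 1, 3, 4 and 11 and Dox replicates 1, 5, 9, 13 and 14, lost that call, with values from -0.28 to -0.22. Leaving out a rat lost the Pim1 call in 0 of 26 fits.

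Akt1, a kinase that phosphorylates BAD and holds FOXO factors out of the nucleus, was lower in Dox + ABT than in both other groups. It ran from 2662 to 4431 in Veh, from 3035 to 4076 in Dox and from 2167 to 3250 in Dox + ABT. Of the 8 Dox + ABT rats, 7 lay below every Dox rat and 4 below every Veh rat. The differences were -0.44 from Veh (SE 0.109, limma p = 0.000331, adjusted p = 0.108) and, for Dox with Dox + ABT, 0.39 (SE 0.114, limma p = 0.00189, adjusted p = 0.171). Within the first kind of library the former was -0.15 (adjusted p = 0.918) and the latter 0.37 (adjusted p = 0.0548). The former lost its call there, and the latter under the replicate block (0.32, adjusted p = 0.472). Bag6, a chaperone for membrane proteins, fell by 0.34 against Veh (limma p = 0.00399, adjusted p = 0.111), with ranges of 3558 to 6546 in Veh and 3639 to 5111 in Dox + ABT, and by 0.04 in the first kind alone (adjusted p = 0.981). That call was also lost with the kind as a covariate (-0.14) and with quantile scaling (-0.23). Foxo3, a factor known to drive Bcl2l11 and of a family that binds motifs like the one in capitals in that gene's window, had medians of 441 for Veh, 588 for Dox and 385 for Dox + ABT, and its difference of 0.35 between Dox and Dox + ABT did not pass the threshold (limma p = 0.0261, adjusted p = 0.324). The values of Foxo3 and the letters in the Bcl2l11 window stand side by side here and were not tested against each other.

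**Figure D4:**
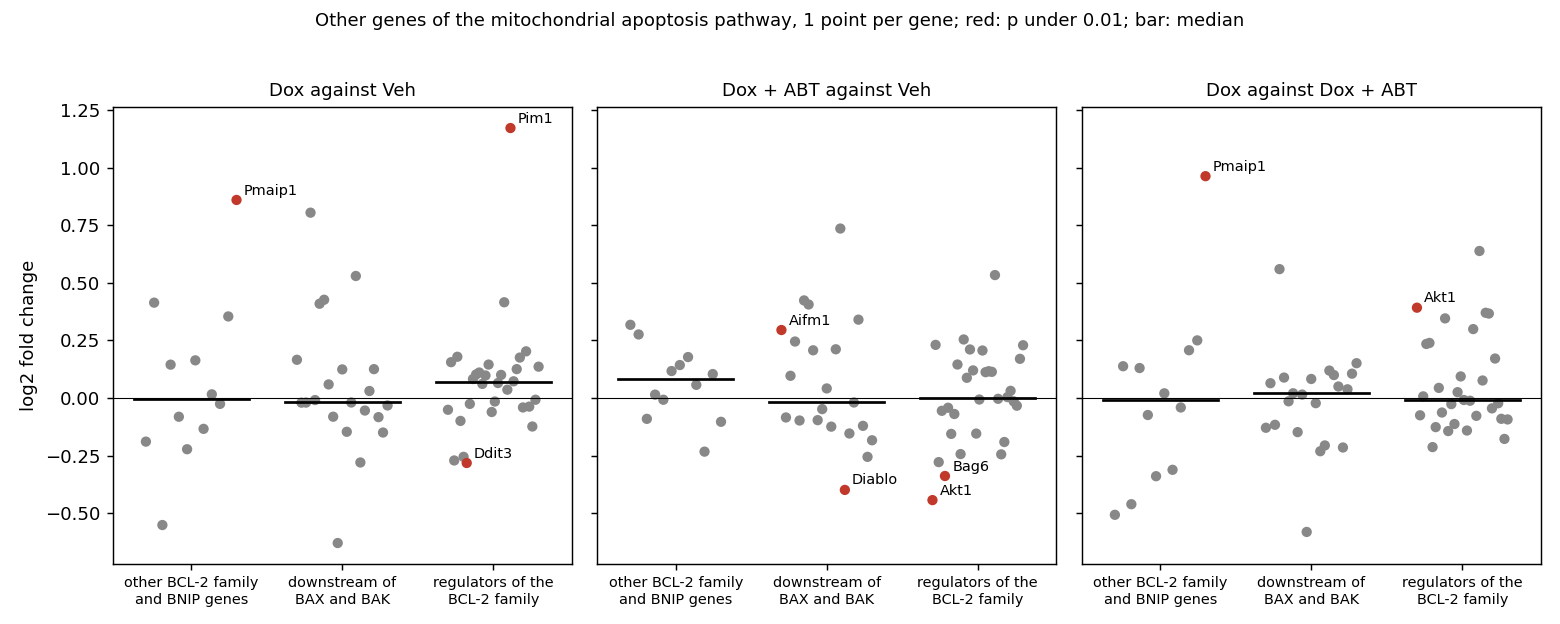
Log2 fold changes of the other genes of the pathway in the 3 comparisons, 1 point per gene, for other BCL-2 family and BNIP genes, genes downstream of BAX and BAK and regulators of the family, with the median as a bar and red where p was under 0.01. Pmaip1 and Pim1 lie highest in Dox with Veh, and Akt1 lies lowest among the red points of Dox + ABT with Veh.

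The genes whose deviations from the means of group and kind of library were most like those of an ABT-263 target were found among 12128 genes or 1 more, whose mean reached 50 normalized counts. For Bcl2 these were Plod3, Pcdh10 and Sox10, with Pearson r of 0.78, 0.74 and 0.74 over 26 rats (Spearman rho 0.80, 0.64 and 0.74). Sox10 encodes a factor of the oligodendrocyte lineage. For Bcl2l1 they were Cd4, Diras1 and Fam151a, each with r of 0.78, and for Bcl2l2 they were Sqle, Rasa3 and Asphd1, with r of 0.74, 0.71 and 0.70. With group means alone removed, r fell to 0.40 for Fam151a, 0.52 for Sqle and 0.45 for Asphd1, while the other 6 of these genes had r from 0.66 to 0.85, so the choice of the former depends on removing the kind of library. Bcl2 and Bcl2l1 had an r of 0.48 with each other, which placed Bcl2l1 at rank 408 of the genes compared with Bcl2. These are descriptions and carry no test: depth and the levels of CA field markers varied between the rats, and both genes of a pair were read from the same library.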

How the data were processed

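Poly(A) RNA from the DG of 26 rats (10 Veh, 8 Dox, 8 Dox + ABT) was sequenced on an Ion Proton. The authors aligned reads to rn6 with STAR 2.5.3a in Partek and divided counts per transcript row by Median Ratio factors, and the deposited values are this normalized signal, with 24012 rows. Groups came from the sample labels and doses from the study's methods. Rows were summed by gene ID. About 80.5% of low values of genes with 1 row were whole reads (within 0.05 of a read), so count tests were not run. Depth, 1.02e+07 to 2.43e+07 reads per library, was estimated from the value of 1 read. Differences were tested with limma 3.58.1 in R 4.3.3 (variance trend, two-sided, no covariate, all rats in 1 fit) on log2(value + 1), a scale that understates changes of low genes, for the 15595 genes that averaged 5 or more. The threshold was p under 0.01, as in the study's methods, with Benjamini-Hochberg values beside it. The fit was tested on simulated data. Genes in the lists were named if they had p under 0.01 in a comparison or the 2 smallest p in it. The family, lists, tests and kinds of library were chosen with earlier results of these data known. The alternatives tried are listed in the closing section. Values within the second kind, the largest row alone and exact permutation tests were added after seeing the data. Gene sequences were matched by symbol. Figures used matplotlib 3.10.9.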

Additional observations from a re-analysis of the deposited data

How the results depend on the processing

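Alternatives were pseudocounts of 0.5 and 5, no filter or one at a mean of 20, arrayWeights, robust eBayes, eBayes without the trend, TMM and quantile scaling, the 2 compared groups alone, the replicate block, the kind of library as a covariate, the first kind alone and leaving out each rat. The largest row, the second kind alone and the exact permutation test were added after seeing the data. Of 359 values of family genes under alternatives that kept all rats or a kind, 327 kept their direction and side of the threshold, 10 lost the call, 5 gained it and 17 turned direction. Of 624 with 1 rat left out, these were 598, 14, 0 and 12. The cause was not tested.

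The number of family genes at p under 0.01 was 1 in each comparison. For Dox with Veh it was 0 under the replicate block and with the first kind alone. For Dox + ABT with Veh it was 0 with quantile scaling (1223 of all genes passed), the block (1180) and the 2 groups alone (1270), beside 1222 in the main fit. It was also 0 with the covariate (214) and the first kind alone (172), and 4 with arrayWeights (5297). For Dox with Dox + ABT it was 0 under the block and 2 with arrayWeights. Under arrayWeights, which gives deviating libraries less weight, the 4 genes were Bcl2, Bcl2l1, Bak1 and Bad, all lower in Dox + ABT (limma adjusted p = 0.00978, 0.00120, 0.00782 and 0.00357), the 2 were Bcl2 and Bcl2l1, and the single gene for Dox with Veh was Bak1 (-0.33) in place of Bcl2l11. With 1 rat left out it ran from 0 to 1 in the first 2 comparisons and stayed at 1 for Dox with Dox + ABT.

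Of all genes, 448, 1222 and 629 passed. With arrayWeights 3150, 5297 and 1612 passed, under the block 765 (Dox with Veh) and 403 (Dox with Dox + ABT), with the first kind alone 742, 172 and 1281, with the covariate 214 (Dox + ABT with Veh), and with 1 rat left out 266 to 707, 695 to 2130 and 419 to 787. With 1 rat left out, the counts in the same order ran from 0 to 2, 0 to 0 and 0 to 1 for other family and BNIP genes, from 0 to 1, 1 to 5 and 0 to 1 downstream of BAX and BAK, where the 5 came without Veh replicate 6 or 10, and from 1 to 4, 2 to 3 and 1 to 3 for regulators, where the 4 came without Dox replicate 7.

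Directions that turned were all of values that did not pass the threshold. Between Dox and Veh, Bcl2 was -0.0099 with quantile scaling and -0.0104 with the largest row, Bak1 0.0203 with the first kind, Bid -0.157 with the second, and Bad 0.0049 with the covariate and 0.166 with the first kind. With 1 rat left out, Bcl2 ran from -0.0996 to 0.100. Between Dox + ABT and Veh, Bax was -0.0149 with arrayWeights, -0.0096 with the covariate and -0.0710 with the largest row, Bak1 0.0232, Bid 0.0195 and Bad 0.0502 with the first kind, and Bid 0.0088 under the block. With 1 rat left out, Bax ran from -0.00551 to 0.126 and Bid from -0.0926 to 0.0871. Between Dox and Dox + ABT, Bcl2l2 was -0.0482 with quantile scaling, -0.0193 under the block and -0.0261 with the first kind, and Bak1 -0.0029 with the first kind. With 1 rat left out, Bcl2l2 ran from -0.00624 to 0.0587.

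It is not known whether the replicate numbers pair the rats. Deviations of rats with the same number had correlations of -0.22 to 0.20 (Veh and Dox, 5 pairs), -0.19 to 0.44 (Veh and Dox + ABT, 8 pairs) and 0.0072 to 0.24 (Dox and Dox + ABT, 3 pairs). Their medians were -0.087, 0.011 and 0.205, beside 0.027, -0.023 and 0.00054 for rats with other numbers. The 3 pairs of Dox and Dox + ABT are too few to decide. Under the block the Bcl2l1 value was 0.25 for Dox with Dox + ABT and the Bcl2l11 value -0.30 for Dox with Veh. Bcl2 and Bcl2l11 rest on medians of 25 and 42.0 reads per library, which limits their precision.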
